A study of Mus musculus with 11 samples.

Results

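The mitochondrial ribosomal protein genes were followed in mouse heart as every row of the deposited table whose symbol starts with Mrpl or Mrps and a digit and whose mean over the 11 libraries was at least 10. Of 23420 genes, 76 symbols matched and 75 had the required mean. The lowest gene inside the limit was Mrps36, with a mean of 19 normalized counts, and the gene just outside was Mrpl23, with a mean of 5.17. By the protein each encodes, 48 of the 75 belong to the large subunit of the mitochondrial ribosome and 26 to the small subunit. The symbols Mrps30 and Mrps18a were counted with the large subunit, where their proteins sit. Mrps36 was kept apart, because its protein is now known as a subunit of the 2-oxoglutarate dehydrogenase complex.

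RNA was taken from whole heart, 400 ng of total RNA per library, and sequenced by a stranded method after removal of ribosomal RNA. All groups descend from mice with loxP sites in Cd36, the gene of a membrane protein that takes up long-chain fatty acids. The 3 EC cd36 KO libraries come from hearts in which Tie2-cre removed Cd36 from endothelial cells, and the 3 MHC cd36 KO libraries from hearts in which MHC-cre removed it from cardiomyocytes. The 3 Total cd36 ko libraries carry no statement of how the deletion was made, and the 2 Control libraries are labelled only as heart tissue of the same strain entry. Tie2-cre is known to act in blood-forming cells as well as in endothelium. Age, sex and pooling of animals were not given in the sources used here, so the p-values reflect only how these libraries vary. The numbers in the labels fall in separate runs for MHC cd36 KO, for EC cd36 KO with Control, and for Total cd36 ko, so any effect that follows those runs cannot be told apart from the groups.

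Libraries held 2268403 to 20105673 recovered reads, with EC cd36 KO replicate 1 the shallowest, and Mrps36 had 3 reads there. Cd36 itself had 25758 to 30308 normalized counts in EC cd36 KO, 15792 to 21610 in MHC cd36 KO and 18847 to 23452 in Total cd36 ko, against 35425 to 44530 in Control. It was lower than in Control in all 9 knockout libraries, and called only in MHC cd36 KO (log2 difference -1.03 ± 0.17 SE, adjusted p = 0.00863 by limma; EC cd36 KO, adjusted p = 0.298; Total cd36 ko, adjusted p = 0.0809). The table counts whole genes and the labels do not give the deleted exons, so reads from outside the deleted part may remain in these values.

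Mitochondria carry their own ribosomes, which make the few proteins encoded by mitochondrial DNA, all of them subunits of the respiratory chain and ATP synthase. Every protein of that ribosome is encoded in the nucleus, made in the cytosol and imported, so its genes are transcribed apart from the mitochondrial ribosomal RNAs they join. Heart muscle is among the tissues richest in mitochondria, and mutations of several of these genes in humans, MRPL3 and MRPL44 among them, cause cardiomyopathy. The nuclear factors NRF1, GABP (an ETS family factor) and YY1 are known to bind promoters of many genes of mitochondrial proteins.

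The promoters of 5 of the genes whose differences are given further on are shown, from RefSeq on GRCm38.p6. Each runs from 250 bases before to 30 bases after the annotated start on the plus strand. Capitals mark letters that match a searched motif on either strand. Mrpl44 (chr1:79775768-79776047) and Mrps9 (chr1:42850983-42851262) were lower in MHC cd36 KO than in Control, Mrps18a (chr17:46110754-46111033) was highest in Total cd36 ko, Mrpl45 (chr11:97315466-97315745) had the largest difference between Total cd36 ko and MHC cd36 KO, and Mrpl33 (chr5:31613701-31613980) was called lower in that comparison.
Mrpl44: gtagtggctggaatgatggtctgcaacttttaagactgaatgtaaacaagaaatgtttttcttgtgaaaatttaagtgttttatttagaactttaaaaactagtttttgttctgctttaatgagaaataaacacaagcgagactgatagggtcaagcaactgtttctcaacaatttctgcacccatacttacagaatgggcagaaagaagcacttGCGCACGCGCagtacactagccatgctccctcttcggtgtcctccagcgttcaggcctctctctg
Mrps9: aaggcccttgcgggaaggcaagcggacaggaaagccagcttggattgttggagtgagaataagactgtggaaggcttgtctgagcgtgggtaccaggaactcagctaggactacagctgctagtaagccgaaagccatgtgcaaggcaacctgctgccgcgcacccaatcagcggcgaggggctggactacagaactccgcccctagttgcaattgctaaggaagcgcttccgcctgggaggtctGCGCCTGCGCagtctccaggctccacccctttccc
Mrps18a: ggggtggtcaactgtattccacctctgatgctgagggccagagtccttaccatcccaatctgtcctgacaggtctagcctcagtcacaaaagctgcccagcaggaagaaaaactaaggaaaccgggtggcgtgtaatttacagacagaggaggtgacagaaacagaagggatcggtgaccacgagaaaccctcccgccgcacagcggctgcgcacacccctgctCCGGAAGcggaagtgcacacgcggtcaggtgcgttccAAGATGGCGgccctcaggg
Mrpl45: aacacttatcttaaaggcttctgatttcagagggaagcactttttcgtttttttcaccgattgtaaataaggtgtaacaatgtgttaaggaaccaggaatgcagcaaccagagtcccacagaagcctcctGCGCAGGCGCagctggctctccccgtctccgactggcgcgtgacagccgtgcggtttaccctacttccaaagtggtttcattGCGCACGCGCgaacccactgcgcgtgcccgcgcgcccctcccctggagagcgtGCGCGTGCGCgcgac
Mrpl33: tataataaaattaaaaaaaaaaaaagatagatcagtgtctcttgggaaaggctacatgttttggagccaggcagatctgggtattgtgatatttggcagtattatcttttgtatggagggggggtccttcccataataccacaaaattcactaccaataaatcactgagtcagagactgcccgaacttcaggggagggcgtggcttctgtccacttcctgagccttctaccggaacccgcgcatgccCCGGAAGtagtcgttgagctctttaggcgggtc

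In these windows Mrpl44, Mrps9 and Mrpl45 held the NRF1 motif with 1 free base (GCGC, then A, any base and GCGC), Mrps18a held the ETS motif (CCGGAAG) and the YY1 motif (AAGATGGCG), and Mrpl33 held the ETS motif. Each window shown thus holds a match, which is not so for all genes with large differences. The windows of Mrpl50, Mrpl28, Mrpl46, Mrpl48 and Mrps7 held no match to any searched motif. Promoter windows of 300 bases were found for 66 of the 75 genes and for 17492 genes in all. The ETS motif lay in 34.8% of the 66 member windows, against 11.9% of all windows. The YY1 motif lay in 12.1% of member windows, against 1.94% of all. NRF1 letters with the free base lay in 18.2% of member windows, against 6.6% of all, and these include the full palindrome, with T as the free base, which lay in 4.55% of member windows, against 1.32% of all.

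Against the 9395 genes with a window that were also tested for expression, the shares were 17.7% for the ETS motif, 3.24% for YY1, 10.3% for NRF1 with the free base and 2.1% for the palindrome. The E-box CACGTG was in 7.58% of member windows, against 7.9% of all windows and 10.3% of those of tested genes, and the ERR motif TCAAGGTCA in 0 of 66, against 0.332% of all windows. No member window held overlapping matches of different motifs, and the median GC content was 58% in members, against 56.3% in all windows and 61% in those of tested genes. Of the 37 windows of genes that differed between Total cd36 ko and MHC cd36 KO, 8 held NRF1 letters with the free base, 10 the ETS motif and 7 the YY1 motif, against 4, 13 and 1 of the 29 other member windows. These matches are letters in a window and were not tested as binding sites.

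Many of the genes share a start region with a neighbour. A protein-coding gene on the opposite strand with its start within 1000 bases was found for 32 of the 75 genes (42.7%), against 1864 of 11873 tested protein-coding genes (15.7%). In 17 of the 32 (22.7% of the 75, against 9.93% of all tested) the genes face away from each other, and in the other 15 their first parts overlap head to head. Several partners serve mitochondria too: Mrps12 faces away from Sars2, the mitochondrial seryl-tRNA synthetase, with 172 bases between the starts. Overlapping pairs are Mrpl46 with Mrps11 (starts 412 bases apart), Mrpl43 with Twnk, the mitochondrial DNA helicase (779 bases), and Mrpl36 with Ndufs6, a subunit of respiratory complex I (29 bases). In GENCODE M21 gene models on GRCm38, 27 members shared exon bases with a gene on the opposite strand and 8 with one on the same strand. The strand setting of the authors' counting was not given in the sources used here, so members with an opposite-strand overlap may include reads of the neighbour. Of the members described here, these include Mrpl12, Mrpl14, Mrpl18, Mrpl19, Mrpl43, Mrpl44, Mrpl46, Mrpl48, Mrps7 and Mrps11. Where the overlap is on the same strand, as for Mrpl33, reads of the neighbour may be included whatever that setting was. Named pseudogenes exist for Mrpl27, Mrpl48 and Mrps36.

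Levels per kilobase of exon, averaged over the 11 libraries, ran from 14.6 normalized counts per kilobase for Mrps36 to 1709 for Mrps23, with a median of 277. Next to Mrps23, a small-subunit protein found only in mitochondria, stood Mrpl28, with 1303 per kilobase, and Mrpl12, with 1295, whose protein forms the stalk that binds translation factors. Mrps10, with 22.7, and Mrpl48, with 26.7, were the lowest ribosomal members per kilobase among the genes named for their level. The genes lie on 17 chromosomes.

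Taken library by library, the genes stood lowest in MHC cd36 KO and highest in Total cd36 ko. The member genes took 0.419%, 0.401% and 0.417% of all reads in EC cd36 KO, 0.368%, 0.399% and 0.401% in MHC cd36 KO, 0.445%, 0.472% and 0.455% in Total cd36 ko, and 0.443% and 0.43% in Control. The 95% Wilson interval was widest in the shallow EC cd36 KO replicate 1, from 0.411% to 0.428%, and covers counting error only. The shares of the 3 EC cd36 KO and the 3 MHC cd36 KO libraries were all below both Control libraries, and those of the 3 Total cd36 ko libraries all above them. The last gap was small: the intervals of Total cd36 ko replicate 1 (0.441% to 0.449%) and Control replicate 1 (0.439% to 0.446%) overlapped. The summed normalized counts averaged 56823 ± 1113 in EC cd36 KO, 49397 ± 4452 in MHC cd36 KO, 63685 ± 569 in Total cd36 ko (SD, n = 3 each) and 58587 ± 133 in Control (SD, n = 2).

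The median member stood at 98.5%, 95.7% and 98.2% of its Control mean in the EC cd36 KO libraries. In the MHC cd36 KO libraries it stood at 77%, 88.2% and 88.9%, and in the Total cd36 ko libraries at 107%, 110% and 108%. MHC cd36 KO replicate 1 was the lowest of the 11 libraries, and 70 of the 75 genes were below their Control mean in it, against 67 and 65 in replicates 2 and 3. The group mean was lowest in MHC cd36 KO for 63 of the 75 genes, in EC cd36 KO for 8, in Total cd36 ko for 0 and in Control for 4. It was highest in MHC cd36 KO for 1 gene and in Total cd36 ko for 60. The commonest order, held by 30 genes, was MHC cd36 KO, EC cd36 KO, Control, Total cd36 ko, low to high. Of these neighbours, EC cd36 KO and Control, and Total cd36 ko and Control, differed past the test in 0 of the 75 genes. The median coefficient of variation of a member was 5.7% in EC cd36 KO, 9.1% in MHC cd36 KO, 4.12% in Total cd36 ko and 6.68% in Control.

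**Figure D1:**
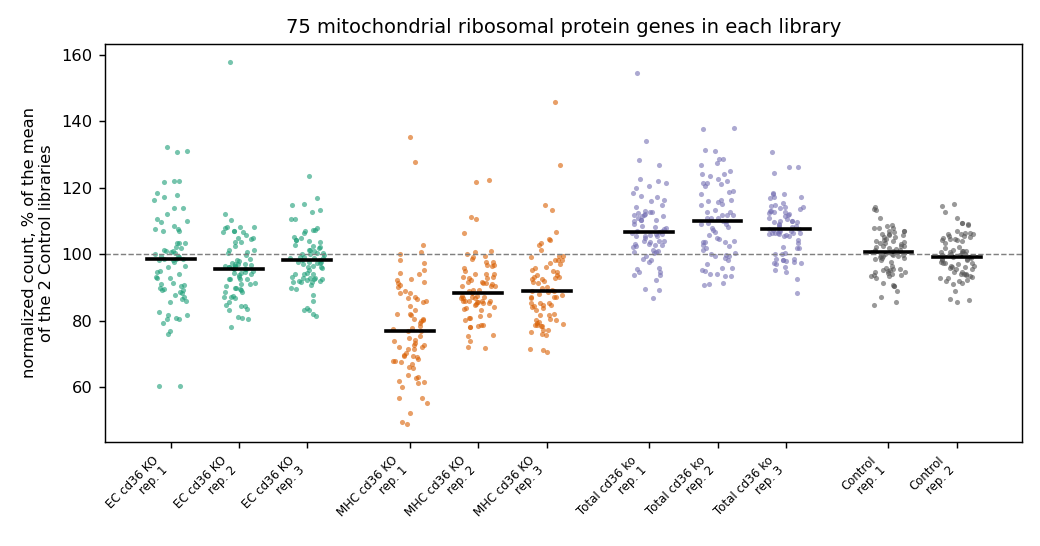
Normalized count of each of the 75 genes as a percentage of its mean over the 2 Control libraries (vertical axis) in the 11 libraries (horizontal axis). Points are genes, bars are medians and the dashed line is 100%. The bars of MHC cd36 KO lie at 77%, 88.2% and 88.9%, those of Total cd36 ko between 107% and 110%.

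Cell type markers moved with these values in MHC cd36 KO. The summed level of 10 cardiomyocyte markers, Myh6 and Ttn among them, was 747615, 1081210 and 1044870 normalized counts in MHC cd36 KO, against 1199670 and 1200310 in Control, with 9 of the 10 lower on average and 0 called. In the other groups that sum was 1301950 to 1346140 in EC cd36 KO and 1204960 to 1353240 in Total cd36 ko. The summed level of 8 fibroblast markers was 85636, 27082 and 35416 in MHC cd36 KO, against 17039 and 17769 in Control, and 4 of the 8 were called higher. All 7 macrophage markers were called higher in MHC cd36 KO, with sums of 5949 to 10508 there, against 3177 and 3425 in Control. In EC cd36 KO the fibroblast sums, 14008 to 16223, were all below both Control libraries, with 7 of the 8 markers below 0 at a median log2 difference of -0.39 and 0 called, and the macrophage sums were 2894 to 3277. In Total cd36 ko the fibroblast sums were 14303 to 18004 and the macrophage sums 3161 to 4208, and 0 of these markers were called against Control. MHC cd36 KO replicate 1 was at once the library with the lowest cardiomyocyte sum, the highest fibroblast and macrophage sums and the lowest member genes.

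The 8 endothelial markers summed to 20346 to 22800 in EC cd36 KO, 16167 to 16893 in MHC cd36 KO, 16890 to 18924 in Total cd36 ko and 17806 to 19827 in Control. The 4 smooth muscle markers summed to 1718 to 1825, 3314 to 4251, 1650 to 2080 and 1195 to 2205 in the same order of groups. Of 3 red blood cell markers in the table, 2 were at 0 in every library. None of the cardiomyocyte, fibroblast or macrophage markers was at 0, and their part in the member genes' differences was not tested. In whole heart, fewer cells of a type and less RNA per cell cannot be told apart.

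Set against Control, MHC cd36 KO hearts had lower levels of most mitochondrial ribosomal protein genes, by a modest amount. By limma with Benjamini-Hochberg adjustment over 12976 genes, 8 of the 75 genes were called, all of them lower, where 5.7% of all genes tested were called in either direction and 2.4% were called lower. The median log2 difference of the 75 was -0.23, beside -0.0042 for all genes, and 68 of the 75 lay below 0, where 50.7% of all genes did. The ranges of the 2 groups did not overlap for 48 genes that were lower, where 18.3% of all genes were lower without overlap. At an unadjusted p under 0.05 there were 38 of 75, where the share of all genes was 21%.

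Among the called large-subunit genes, Mrpl50, found only in mitochondria (chr4:49512596-49521093, minus strand, GRCm38), had 756, 902 and 869 normalized counts in MHC cd36 KO, against 1158 and 1134 in Control. It was lower by a log2 difference of -0.45 ± 0.10 SE (adjusted p = 0.023). Mrpl44, of an RNase III fold (chr1:79776018-79781445, plus strand), had 609, 706 and 693 in MHC cd36 KO, against 948 and 844 in Control, a log2 difference of -0.42 ± 0.10 (adjusted p = 0.0285). In both genes every MHC cd36 KO library lay below both Control libraries.

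Mrpl28, a counterpart of a bacterial ribosomal protein and one of the most abundant members (chr17:26123500-26126613, plus strand), had 999.8, 1539 and 1435 in MHC cd36 KO, against 2179 and 1891 in Control, a log2 difference of -0.64 ± 0.15 (adjusted p = 0.0317). Mrpl14, which lies where the large subunit meets the small one (chr17:45686322-45698495, plus strand), had 454, 657 and 657 in MHC cd36 KO, against 988 and 845 in Control, a log2 difference of -0.65 ± 0.15 (adjusted p = 0.0285). In each of them replicate 1 was far below the other 2 MHC cd36 KO libraries, and the ranges still did not overlap. Mrpl42 and Mrpl37, both found only in mitochondria, were lower by log2 differences of -0.50 ± 0.13 (adjusted p = 0.0476) and -0.39 ± 0.10 (adjusted p = 0.0374).

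Both called small-subunit genes encode counterparts of bacterial proteins. Mrps9, whose bacterial relative reaches the transfer RNA in the P site (chr1:42851233-42905683, plus strand), had 847, 1015 and 1029 in MHC cd36 KO, against 1327 and 1361 in Control, a log2 difference of -0.48 ± 0.10 (adjusted p = 0.0211). Mrps28 (chr3:8802146-8923918, minus strand) had 326, 462 and 445 in MHC cd36 KO, against 714 and 535 in Control, a log2 difference of -0.60 ± 0.16 (adjusted p = 0.0417). The calls rest on few libraries: the count fell to 0 without Control replicate 1 and to 3 without Control replicate 2, and was 4 without MHC cd36 KO replicate 1, 5 without EC cd36 KO replicate 2, 5 and 4 without Total cd36 ko replicates 2 and 3, and 13 without MHC cd36 KO replicate 2. No gene was called in all 11 fits that each left out 1 library, and the fit to the 2 groups alone called 0. edgeR and DESeq2 called 13 and 15, and the 15 include Mrpl33, which was higher in MHC cd36 KO.

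**Figure D2:**
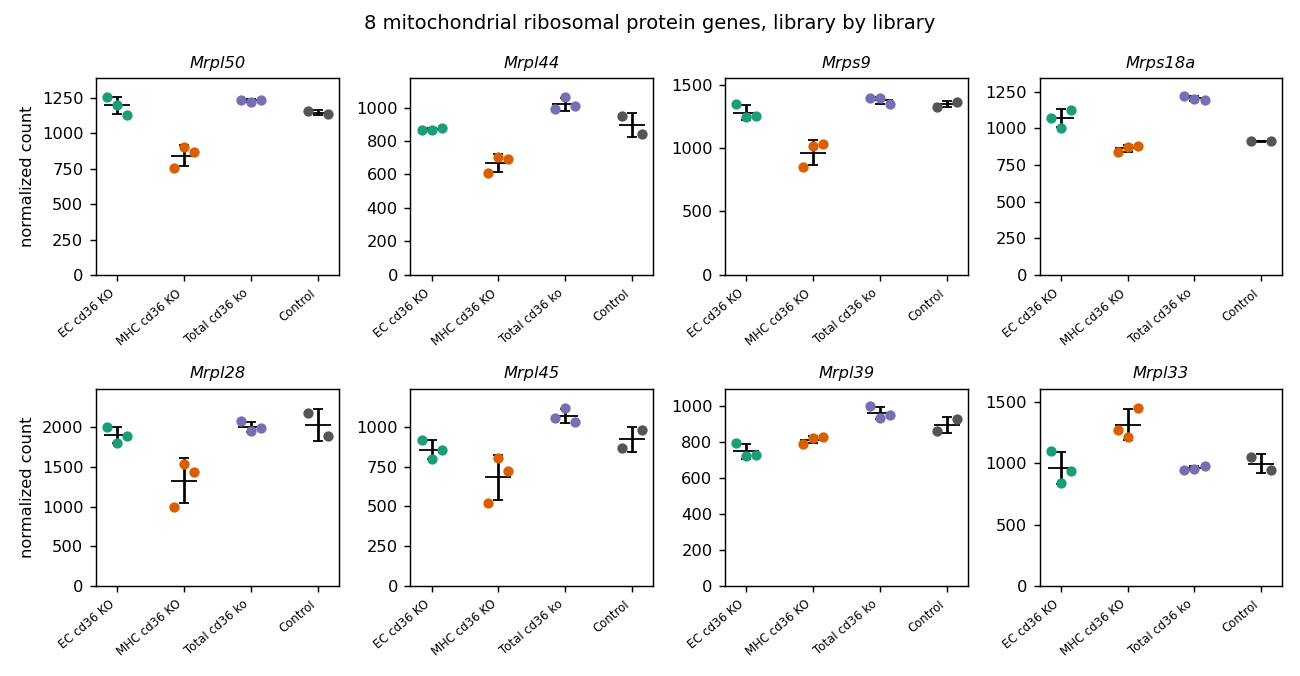
Normalized count (vertical axis, from 0) of 8 mitochondrial ribosomal protein genes in the libraries of the 4 groups (horizontal axis). Points are libraries, horizontal lines are group means and error bars are SDs (n = 3, and n = 2 in Control). Mrpl50, with 756 to 902 in MHC cd36 KO against 1134 and 1158 in Control, and Mrpl33, with 1217 to 1457 against 946 and 1052, lie on opposite sides of Control.

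The widest difference was that between Total cd36 ko and MHC cd36 KO. Of the 75 genes, 44 were called, 43 higher and 1 lower, where 16.4% of all genes were called and 8.2% were called higher. The median log2 difference was 0.37, beside -0.0052 for all genes, 74 of the 75 lay above 0, where 49.2% of all genes did, and 62 were higher with no overlap between the groups, where 19.6% of all genes were. The called genes comprised 32 of 48 in the large subunit and 12 of 26 in the small, and 27 of 45 with a bacterial counterpart and 17 of 29 found only in mitochondria. Mrps36 was not called (0.08 ± 0.27 SE, adjusted p = 0.872).

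Mrpl45, the protein that holds the ribosome to the inner membrane beside its exit tunnel (chr11:97315716-97329920, plus strand), had 1062, 1119 and 1033 normalized counts in Total cd36 ko, against 525, 804 and 725 in MHC cd36 KO. It was higher by a log2 difference of 0.67 ± 0.14 SE (adjusted p = 0.00795 by limma). Mrpl19 (chr6:81957851-81965958, minus strand) had 512, 507 and 503 in Total cd36 ko, against 285, 347 and 331 in MHC cd36 KO, a log2 difference of 0.66 ± 0.10 (adjusted p = 0.00304). The Total cd36 ko libraries were close together in both genes, and all above the MHC cd36 KO libraries.

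Mrpl44 had 989, 1064 and 1009 in Total cd36 ko, against 609, 706 and 693 in MHC cd36 KO, a log2 difference of 0.61 ± 0.09 with the lowest adjusted p of the members, 0.00186. Mrpl50 had 1236, 1222 and 1239 in Total cd36 ko, against 756, 902 and 869 in MHC cd36 KO, a log2 difference of 0.55 ± 0.09 (adjusted p = 0.00304). The other large rises were in Mrpl46 (0.65), Mrpl48 (0.64), Mrpl18 (0.63), Mrpl28 (0.62), Mrpl42 (0.58) and Mrps28 (0.58), all on the log2 scale. Mrpl18 is the relative of the bacterial protein that binds 5S RNA, and Mrpl46 and Mrpl48 are found only in mitochondria.

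Among the small-subunit genes the log2 differences ran up to 0.58, that of Mrps28. Mrps9 had 1394, 1394 and 1346 in Total cd36 ko, against 847, 1015 and 1029 in MHC cd36 KO, a log2 difference of 0.52 ± 0.09 (adjusted p = 0.00438). Mrps7, in the head of the small subunit (chr11:115603925-115608036, plus strand), had 1506, 1488 and 1570 in Total cd36 ko, against 996, 1150 and 1134 in MHC cd36 KO, a log2 difference of 0.48 ± 0.08 (adjusted p = 0.00418). Mrps23 had 3046, 3196 and 3138 in Total cd36 ko, against 2275, 2645 and 2568 in MHC cd36 KO, a log2 difference of 0.33 ± 0.09 (adjusted p = 0.0271), and its mean in MHC cd36 KO, 2496 ± 195, was near that of Control, 2486 ± 228. Of the 44 calls, 18 were made in every one of the 11 fits that left out a library, Mrpl19, Mrpl44, Mrpl45, Mrpl50, Mrps7 and Mrps9 among them. The count was 22 without MHC cd36 KO replicate 1, 25, 25 and 23 without Total cd36 ko replicates 1, 2 and 3, and 17 without replicates 1 of the 3 knockout groups together.

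Scaling set part of the size of this difference. When every library was rescaled to its total, the median of all genes moved to -0.14 and 22 of the 75 genes were called, 21 of them higher. Relative to the median of all genes, the median member stood at 0.37 with either scaling. A single factor per library shifts all its genes nearly alike, so this value could hardly change and is no check on scaling. The normalized totals were 13620305 to 14202903 in Total cd36 ko, against 12021317 to 13019901 in MHC cd36 KO.

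EC cd36 KO also stood above MHC cd36 KO. Of the 75 genes, 19 were called, 18 higher and 1 lower, where 19.1% of all genes were called and 8.72% called higher. The median log2 difference was 0.18, beside -0.0024 for all genes, 65 of the 75 genes lay above 0, where 49.7% of all genes did, and 36 genes were higher with no overlap, where 19.1% of all genes were. Mrpl50 had 1257, 1202 and 1133 in EC cd36 KO, against 756, 902 and 869 in MHC cd36 KO, a log2 difference of 0.51 ± 0.09 SE (adjusted p = 0.00242). The other rises among the 10 largest, on the log2 scale, were in Mrps28 (0.57), Mrpl28 (0.54), Mrpl48 (0.52), Mrps31 (0.51), Mrpl14 (0.49), Mrpl32 (0.49), Mrpl19 (0.44), Mrpl46 (0.42) and Mrps9 (0.41).

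All 19 genes were also among the 44 called between Total cd36 ko and MHC cd36 KO, 43.2% of those 44, and both comparisons share the MHC cd36 KO libraries. Of the 8 genes called between MHC cd36 KO and Control, all were among the 44 and 7 among the 19, again with shared MHC cd36 KO libraries. The count of 19 was 11 without MHC cd36 KO replicate 1, 12 and 11 without EC cd36 KO replicates 1 and 2, and 2 (Mrpl33 and Mrpl50) without replicates 1 of the 3 knockout groups. With rescaling to library totals, the median of all genes moved to -0.12 and 12 genes were called, 9 of them higher. Relative to all genes, the median member stood at 0.18 with either scaling, which a single factor per library could hardly change.

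Mrpl33 was the 1 member called lower in EC cd36 KO than in MHC cd36 KO and the 1 called lower in Total cd36 ko than in MHC cd36 KO. In EC cd36 KO minus MHC cd36 KO 10 of the 75 genes lay below 0, and in Total cd36 ko minus MHC cd36 KO Mrpl33 alone did. Its protein is a small relative of a bacterial large-subunit protein, and its gene model (chr5:31596935-31664384, plus strand) shares 261 exon bases with Gm43809. It had 1100, 843 and 939 normalized counts in EC cd36 KO, 1275, 1217 and 1457 in MHC cd36 KO, 946, 957 and 979 in Total cd36 ko and 1052 and 946 in Control. All MHC cd36 KO libraries lay above the other 8. The log2 difference was -0.46 ± 0.11 SE for EC cd36 KO minus MHC cd36 KO (adjusted p = 0.0117 by limma) and -0.45 ± 0.11 for Total cd36 ko minus MHC cd36 KO (adjusted p = 0.0154). For MHC cd36 KO minus Control it was 0.40 ± 0.12 (adjusted p = 0.074), past the threshold with DESeq2 and with library totals.

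**Figure D3:**
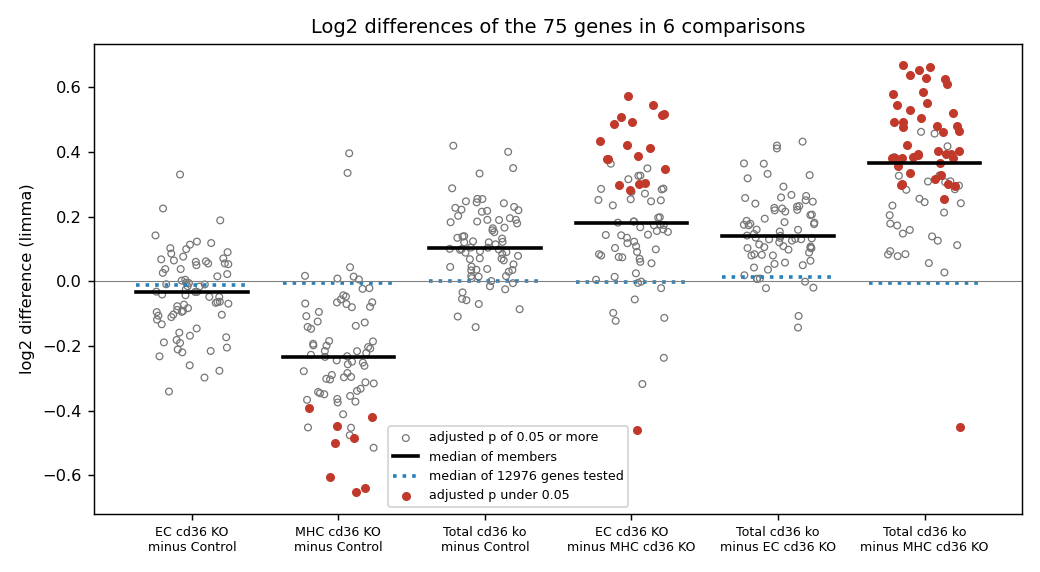
Log2 difference from limma (vertical axis) of the 75 genes in 6 comparisons (horizontal axis, group on top of the difference named first). Filled points passed an adjusted p of 0.05, open points did not, solid bars are medians of the 75 genes and dotted bars medians of 12976 genes. In Total cd36 ko minus MHC cd36 KO 44 points are filled, and the single filled point below 0 is Mrpl33.

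Between EC cd36 KO and Control, limma called 0 of the 75 genes, where 0.316% of all genes were called, and edgeR and DESeq2 called 0 as well. At an unadjusted p under 0.05 there were 4 genes, where the share of all genes was 10.5%. The median log2 difference was -0.03, beside -0.01 for all genes, with 47 of the 75 genes below 0, where 52.4% of all genes were. The 4 genes of lowest p were Mrpl39 (-0.26 ± 0.09 SE, adjusted p = 0.324), Mrps16 (-0.28 ± 0.10, adjusted p = 0.348), Mrps18a (0.23 ± 0.09, adjusted p = 0.379) and Mrpl55 (-0.30 ± 0.13, adjusted p = 0.445). None of the 4 passed the threshold.

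Between Total cd36 ko and Control, limma called 0 of the 75 genes, where 0.0848% of all genes were called. edgeR called 0 and DESeq2 called 1, Mrps18a, and 5 genes had an unadjusted p under 0.05, where the share of all genes was 8.11%. The median log2 difference was 0.10, beside 0.0003 for all genes, 65 of the 75 genes lay above 0, where 50.1% of all genes did, and 33 were higher with no overlap between the groups, where 12.3% of all genes were. Mrps18a, whose protein sits in the large subunit (chr17:46110986-46128910, plus strand), had 1222, 1198 and 1193 in Total cd36 ko, against 911 and 913 in Control, a log2 difference of 0.40 ± 0.09 SE (adjusted p = 0.133). Its libraries did not overlap between the groups, and its values in EC cd36 KO, 1069, 1005 and 1128, and in MHC cd36 KO, 836, 876 and 878, lay on either side of Control. The next by p were Mrps23 (0.33 ± 0.10, adjusted p = 0.36), Mrpl19 (0.35 ± 0.12, adjusted p = 0.389) and Mrpl43 (0.26 ± 0.10, adjusted p = 0.49).

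Between Total cd36 ko and EC cd36 KO, limma called 0 of the 75, where 0.0385% of all genes were called. edgeR called 0 and DESeq2 called 1, Mrpl39, and 20 genes had an unadjusted p under 0.05, where the share of all genes was 10.4%. The median log2 difference was 0.14, beside 0.01 for all genes, 70 of the 75 genes lay above 0, where 52.9% of all genes did, and 35 were higher with no overlap, where 10.7% of all genes were. Mrpl39, which resembles threonyl-tRNA synthetase (chr16:84717576-84735742, minus strand), had 997, 934 and 949 in Total cd36 ko, against 792, 718 and 728 in EC cd36 KO, a log2 difference of 0.36 ± 0.08 SE (adjusted p = 0.151). Its lowest mean was in EC cd36 KO, at 746 ± 39.7, beside 812 ± 20 in MHC cd36 KO. Mrps23 (0.33 ± 0.09, adjusted p = 0.255), Mrpl55 (0.42 ± 0.11, adjusted p = 0.255) and Mrpl35 (0.29 ± 0.09, adjusted p = 0.317) followed.

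An F test over the 3 contrasts with Control called 25 of the 75 genes, where 14.3% of all genes were called. The 10 genes of lowest p were Mrpl50 (adjusted p = 0.005), Mrpl44 (adjusted p = 0.00518), Mrps18a, Mrpl19, Mrps9, Mrps7, Mrpl37, Mrpl46, Mrpl28 and Mrpl42. Of the 25, 7 were called in every fit that left out a library: Mrpl19, Mrpl28, Mrpl44, Mrpl50, Mrps18a, Mrps7 and Mrps9. Without replicates 1 of the 3 knockout groups 6 were called. Single libraries moved the count to 14 and 13 without MHC cd36 KO replicates 1 and 3, and to 14, 12 and 9 without Total cd36 ko replicates 1, 2 and 3. The 2 subunits had like medians in Total cd36 ko minus MHC cd36 KO, 0.38 over 48 large-subunit genes and 0.32 over 26 small-subunit genes, and in MHC cd36 KO minus Control, -0.25 and -0.22. Genes with a bacterial counterpart and genes found only in mitochondria had medians of 0.33 and 0.39 in Total cd36 ko minus MHC cd36 KO. These splits carry no test.

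Other genes of mitochondrial translation had medians of the same sign in Total cd36 ko minus MHC cd36 KO, while cytosolic ribosomal proteins had a median near 0. The 10 cardiomyocyte markers had a median of 0.41 in this comparison, with 9 above 0 and 1 called higher. Fibroblast and macrophage markers had medians of -1.33 and -1.13, with 7 of 8 and 7 of 7 called lower. Endothelial and smooth muscle markers had medians of 0.10 and -0.37. The part of cell types in the lists' differences was not tested. The counts of each list stand beside 16.4% of all genes called in this comparison and 8.2% called higher. Of 7 mitochondrial ribosomal proteins whose symbols lack an Mrp number in this pattern, 3 were called higher: Ptcd3 (0.53), Dap3 (0.37), a small-subunit GTP-binding protein, and Ict1 (0.33), a peptidyl-tRNA hydrolase built into the large subunit. Their median was 0.31. Of 23 assembly factors and ribosomal RNA modifying enzymes, 7 were called higher, with a median of 0.27: Fastkd2, Nsun4, Tfb1m (0.68), which methylates the small ribosomal RNA, Rnmtl1, Ftsj2, Eral1 and Mettl15. Of 65 cytosolic ribosomal proteins, 1 was called, Rpl3l, a muscle form, and the median was -0.03.

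Of 16 mitochondrial translation factors, 9 were called higher, with a median of 0.38: Gfm2 (0.52), which recycles ribosomes, the initiation factors Mtif2 (0.42) and Mtif3, Taco1 (0.70), the messenger RNA stabiliser Lrpprc (0.48), the elongation factor Tufm (0.43), Oxa1l, Mrrf and Guf1. Gfm2 had 1657, 1579 and 1573 normalized counts in Total cd36 ko, against 1014, 1216 and 1133 in MHC cd36 KO (0.52 ± 0.09 SE, adjusted p = 0.00409 by limma). Of 20 genes that charge mitochondrial transfer RNAs, 10 were called higher, with a median of 0.40, among them Sars2 (0.76), Yars2 (0.66), Pet112 (0.75), Cars2, Fars2 and Tars2. Sars2, the neighbour of Mrps12, had 279, 243 and 263 in Total cd36 ko, against 150, 153 and 159 in MHC cd36 KO (0.76 ± 0.13, adjusted p = 0.0043), and Mrps12 had 544, 584 and 594 in Total cd36 ko, against 424, 463 and 423 in MHC cd36 KO (0.39 ± 0.09, adjusted p = 0.0147). In both neighbours every Total cd36 ko library lay above every MHC cd36 KO library. In EC cd36 KO minus MHC cd36 KO, Sars2 was called and Mrps12 was not. Other neighbours differed: Mrpl43 and Twnk were both called higher in Total cd36 ko than in MHC cd36 KO, while Mrpl46 was called and Mrps11 was not. Mrps11 had 288, 291 and 265 in Total cd36 ko, against 273, 274 and 249 in MHC cd36 KO. Whether neighbours change together was not tested.

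Of 9 genes of mitochondrial DNA transcription and replication, 2 were called higher in Total cd36 ko than in MHC cd36 KO, where 8.2% of all genes were, Peo1 (0.47), the symbol of Twnk in the table, and Tfam (0.38), which packages mitochondrial DNA. Of 9 regulators of mitochondrial biogenesis, 1 was called in this comparison, the coactivator Ppargc1a. It had 3543, 2848 and 2406 normalized counts in Total cd36 ko, against 819, 1878 and 1412 in MHC cd36 KO, a log2 difference of 1.16 ± 0.27 SE (adjusted p = 0.0148). Nrf1 did not pass (0.10 ± 0.11, adjusted p = 0.59) and neither did Gabpa (0.11 ± 0.09, adjusted p = 0.452). The 6 lists other than the cytosolic proteins are taken here in the order given. Without MHC cd36 KO replicate 1 their counts called were 2, 2, 4, 4, 1 and 1. Without replicates 1 of the 3 knockout groups they were 1, 1, 2, 3, 0 and 1.

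In MHC cd36 KO minus Control, where 5.7% of all genes were called, the calls were 1 each of the 23 assembly genes, the 16 factors, the 20 synthetase genes and the 65 cytosolic proteins, and 0 of the 7 ribosomal proteins without an Mrp number and of both lists of 9 genes. They were Fastkd2 (-0.50 ± 0.12 SE, adjusted p = 0.0366 by limma), Mtif2 (-0.43 ± 0.09, adjusted p = 0.0237), Sars2 (-0.69 ± 0.14, adjusted p = 0.0215) and Rpl3l, all lower. Sars2 had 150, 153 and 159 normalized counts in MHC cd36 KO, against 231 and 269 in Control, and was called also without MHC cd36 KO replicate 1, when Fastkd2 and Mtif2 were not. All 16 translation factors and all 20 synthetase genes had values below 0. In EC cd36 KO minus Control, 1 gene of these lists was called, Myc (-0.97 ± 0.17, adjusted p = 0.0342), a regulator of growth, with 90.6, 75.3 and 89.3 in EC cd36 KO, against 162 and 171 in Control. In Total cd36 ko minus Control 0 were called by limma.

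In EC cd36 KO minus MHC cd36 KO, 19.1% of all genes were called and 8.72% were called higher. Called of the lists were Ptcd3 and Dap3 of the 7 ribosomal proteins, and Fastkd2, Mettl17, Eral1 and Mettl15 of the 23 assembly genes. Of the 16 factors Lrpprc, Oxa1l, Gfm2 and Tufm were called, and of the 20 synthetase genes Sars2, Mars2, Cars2, Yars2 and Pet112. All of these were higher. Tfb2m, a transcription factor of mitochondrial DNA, Gabpa (0.32 ± 0.09 SE, adjusted p = 0.0268 by limma) and Ppargc1a (0.88 ± 0.27, adjusted p = 0.0391) were also called higher, and Myc (-1.03 ± 0.15, adjusted p = 0.00109) lower. Of the cytosolic ribosomal proteins 5 of 65 were called, 2 higher and 3 lower, where 19.1% of all genes were called. Their median was -0.14, beside -0.0024 for all genes, and 49 of the 65 lay below 0. Without MHC cd36 KO replicate 1, Tfb2m, Gabpa and Ppargc1a were not called, and the calls were 1 of the 7 ribosomal proteins (Ptcd3), 1 of the 23 assembly genes (Fastkd2), 2 of the 16 factors (Lrpprc and Oxa1l) and 5 of the 20 synthetase genes. Without replicates 1 of the 3 knockout groups those 4 counts were 0, 0, 0 and 3.

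**Figure D4:**
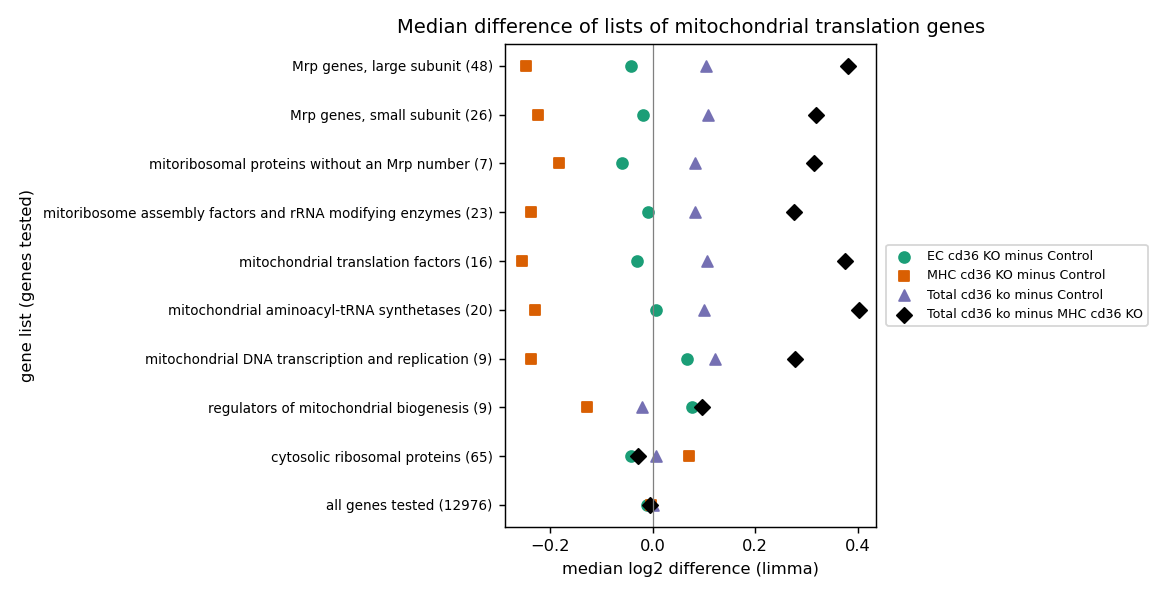
Median log2 difference from limma (horizontal axis) of 9 gene lists and of all 12976 genes tested (vertical axis, number of genes tested in brackets). Each symbol is 1 comparison. The lists of mitochondrial translation genes have medians of 0.27 to 0.40 in Total cd36 ko minus MHC cd36 KO, and the 65 cytosolic ribosomal proteins one of -0.03.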

How the data were processed

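The submitters' processing notes name mm10, TopHat2, HTSeq 0.8.0 and DESeq2 (given as 3.5); the annotation, filters, strand setting and TopHat2 version were not given in the sources used here. The deposited signal values are read counts per gene divided by one factor per library by the authors: all 257620 values (100%) were within 0.05 of a whole read after division by the library's smallest step. Genes whose mean reached 10 (12976 of them) were taken as log2(value + 1), a scale that understates changes of low genes. Values were fitted in one limma model (3.58.1, R 4.3.3) to all 11 libraries, with p-values adjusted by Benjamini-Hochberg over all genes of a contrast and called under 0.05. edgeR 4.0.16 (quasi-likelihood) and DESeq2 1.42.0 were run on the recovered counts as alternatives.

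Replicates are numbered in order of deposit. Only the limma step was tested on simulated data, for MHC cd36 KO minus Control and with changes larger than those of the members. The members, lists, motifs and rule for named genes were chosen with earlier results of these data known. The rule names, per comparison, up to 10 called members in each direction by size or, with fewer than 4 called, the 4 of lowest p, the 10 of lowest F test p, the 5 highest and 5 lowest by level, and called genes of the lists. Not every called list gene is reported here. Genome positions are from GENCODE M21 on GRCm38, and promoters from RefSeq.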

Additional observations from a re-analysis of the deposited data

How the results depend on the processing

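No paired analysis was possible because nothing in the labels ties libraries across groups. The settings tried were each library left out, edgeR, DESeq2, the 2 groups alone, a robust prior, a weight per library, rescaling to library totals, to quantiles and to the upper quartile, pseudocounts (0.5 or 5), and a filter at a mean of 50 or none. Leaving out replicates 1 of EC cd36 KO, MHC cd36 KO and Total cd36 ko together was chosen after seeing the data. The causes of the changes were not tested. The shares of all genes called under these settings are not given here. A changed count of members may therefore reflect a change in the calls of all genes.

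With library totals the counts called were 5 in MHC cd36 KO minus Control, 12 in EC cd36 KO minus MHC cd36 KO, 22 in Total cd36 ko minus MHC cd36 KO and 16 in the F test, with medians of -0.15, 0.059 and 0.23 in the first 3. A weight per library gave 5 in MHC cd36 KO minus Control, 1 in Total cd36 ko minus EC cd36 KO, 40 in the F test and a median of 0.30 in Total cd36 ko minus MHC cd36 KO. edgeR gave 13 and DESeq2 15 in MHC cd36 KO minus Control, and DESeq2 gave 1 in Total cd36 ko minus Control and 1 in Total cd36 ko minus EC cd36 KO. Mrpl33, higher in MHC cd36 KO than in Control, was among the 15 with DESeq2 and the 5 with library totals. The fit to the 2 groups gave 0 in MHC cd36 KO minus Control and 12 in EC cd36 KO minus MHC cd36 KO. Without the 3 libraries together the counts were 3, 2, 17 and 6 in MHC cd36 KO minus Control, EC cd36 KO minus MHC cd36 KO, Total cd36 ko minus MHC cd36 KO and the F test, with medians of -0.17, 0.12 and 0.29.

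Over the 11 fits without 1 library, counts ran from 0 to 13, from 11 to 22, from 22 to 47 and from 9 to 30 in that order, and medians from -0.29 to -0.17, from 0.13 to 0.22 and from 0.27 to 0.39. Some values near 0 changed sign. Mrpl37 in EC cd36 KO minus Control was 0.0030 with DESeq2 and 0.012 without the 3 libraries, and ran from -0.040 to 0.016 over the fits without 1 library. In the same comparison Mrpl28 ran from -0.20 (without Control replicate 2) to 0.0067 and Mrpl44 from -0.12 to 0.042 (both without Control replicate 1). In Total cd36 ko minus Control, Mrpl28 ran from -0.12 to 0.087 and Mrpl42 from -0.030 to 0.20. With library totals, Mrps18a was 0.0057 in MHC cd36 KO minus Control and Mrps9 -0.016 in Total cd36 ko minus Control. Of 984 values of named members under settings other than left-out libraries, 948 kept their direction and side of the threshold, as did 897 of 984 under left-out libraries. Leaving out a library of a group outside the comparison cannot change a log2 difference, nor can a robust prior. Direction was fixed in those fits, so these totals say little about how stable it is.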
